A study of Mus musculus with 8 samples.

Results

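Resting promoter peaks of bone marrow-derived macrophages (BMDMs) were described from ATAC-seq, which uses a transposase to tag and sequence open chromatin. Of 24867 peaks counted in NCoR f/f BMDMs, 7098 belonged to the resting (Veh) set of reproducible peaks and were annotated to the promoter of a transcript, that is, to the stretch from 1000 bp upstream to 100 bp downstream of its transcription start site (TSS). They made up 7098 of the 15473 resting peaks. The other 8375 resting peaks, in introns, exons, untranslated regions, transcript ends and between genes, served for comparison, and 2047 promoter peaks of the same table were outside the resting set. The NCoR f/f cells carried loxP-flanked alleles of Ncor1 (genotype NCoR1 flox/flox, C57Bl6 strain) without the LysM-Cre that deletes the gene in the study's knockout cells, were treated with vehicle (Veh) for 6 h, and were profiled in 2 libraries. A second table held 2 libraries each of WT BMDMs at Veh, after 6 h with 100 ng per mL of the TLR4 agonist Kdo2 lipid A (KLA), and after KLA with RGFP966, an inhibitor of HDAC3. For the last pair the sample titles name RGFP966 while the treatment label names only KLA. The methods give C57BL/6 mice of 8 to 12 weeks as the source of the marrow, which was differentiated in culture. Separate mice or cultures are not stated for the 2 libraries of any condition, so that p-values measure only the spread between libraries, which may be technical.

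A promoter is the DNA around a TSS on which general transcription factors and RNA polymerase II assemble. Most mammalian promoters of broadly expressed genes lie in CpG islands, which are rich in GC and in unmethylated CpG, are bound by factors such as Sp1, NF-Y, NRF1, YY1 and ETS proteins, and stay free of nucleosomes also in cells at rest. Tissue-specific control in macrophages rests more on distal enhancers opened by PU.1, C/EBP and AP-1 factors. NCoR and HDAC3 form a corepressor complex that is recruited to such regulatory sites.

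The stretches of 150 bases before the RefSeq start of 13 genes with a resting promoter peak are shown here, 5′ to 3′ on the strand of the gene, because they span the range of levels and sequence types described below. Coordinates are of mm10 (RefSeq promoter table of GRCm38.p6). Capitals mark matches on either strand to the 15 short motifs that were searched, and matches that touch or overlap run together. A match that overlaps an earlier one to the same motif is neither marked nor counted, as at the start of Agrn. The peaks cover all 150 bases, except in Cldnd1 (107), Hmgcs1 (127), Trem2 (95) and Trit1 (119). The first 5 belong to genes among the 10 with the highest level, in which Hjurp has an ETS site (CCGGAAG), Kbtbd8os, Polr3k and Kyat3 have CCAAT boxes, and Cldnd1 has no match.
Hjurp, chr1:88277580-88277729, minus strand: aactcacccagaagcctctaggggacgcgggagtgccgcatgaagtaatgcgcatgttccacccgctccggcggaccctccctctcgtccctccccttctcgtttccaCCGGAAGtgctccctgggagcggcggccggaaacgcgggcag
Kbtbd8os, chr6:95117632-95117781, minus strand: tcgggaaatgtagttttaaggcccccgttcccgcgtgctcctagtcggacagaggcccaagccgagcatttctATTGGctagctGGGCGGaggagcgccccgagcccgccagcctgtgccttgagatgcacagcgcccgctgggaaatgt
Polr3k, chr2:181864210-181864359, plus strand: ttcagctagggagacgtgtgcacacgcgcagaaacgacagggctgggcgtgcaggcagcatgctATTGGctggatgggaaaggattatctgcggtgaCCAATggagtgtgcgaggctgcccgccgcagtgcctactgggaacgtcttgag
Kyat3, chr3:142700898-142701047, plus strand: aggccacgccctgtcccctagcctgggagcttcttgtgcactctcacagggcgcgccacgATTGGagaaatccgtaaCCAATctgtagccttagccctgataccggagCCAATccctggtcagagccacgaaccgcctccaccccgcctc
Cldnd1, chr16:58727760-58727909, plus strand: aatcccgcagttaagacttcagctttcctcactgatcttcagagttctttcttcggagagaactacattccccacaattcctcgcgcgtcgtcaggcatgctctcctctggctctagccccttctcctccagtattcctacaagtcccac
The next 4 are the highest members of the lists of lipid, glycolysis, ribosomal protein and macrophage marker genes. Hmgcs1 matches the SREBP string (TCACNCCAC), CCAAT, the ETS and NF-kB strings and the GC box. Hk2 holds 2 CCAAT and 2 GC boxes, and Rps21 holds 2 ETS sites. Trem2 matches the AP-1 string searched (TGANTCA) only through its open position, as TGAATCA.
Hmgcs1, chr13:119690201-119690350, plus strand: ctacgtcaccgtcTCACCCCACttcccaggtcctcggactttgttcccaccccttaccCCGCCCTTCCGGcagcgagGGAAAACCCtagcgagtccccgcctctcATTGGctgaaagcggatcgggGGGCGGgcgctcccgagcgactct
Hk2, chr6:82774455-82774604, minus strand: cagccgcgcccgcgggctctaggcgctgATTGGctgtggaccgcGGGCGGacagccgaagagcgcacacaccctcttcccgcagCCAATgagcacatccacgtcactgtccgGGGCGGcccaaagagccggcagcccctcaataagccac
Rps21, chr2:180257229-180257378, plus strand: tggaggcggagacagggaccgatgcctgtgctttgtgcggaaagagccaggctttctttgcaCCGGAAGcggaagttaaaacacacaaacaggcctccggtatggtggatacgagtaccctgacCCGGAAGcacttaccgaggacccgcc
Trem2, chr17:48346251-48346400, plus strand: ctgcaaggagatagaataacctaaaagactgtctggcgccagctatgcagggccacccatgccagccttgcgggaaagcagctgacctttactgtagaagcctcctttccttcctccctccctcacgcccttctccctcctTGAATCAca
The last 4 are Tnf, Jun, Agrn and Trit1. Tnf, the only inflammatory cytokine or enzyme gene of its list with a resting promoter peak, has a TATA box and a GC box. The peaks of Jun and Agrn were called lower and higher with KLA in WT BMDMs. Jun has a CCAAT and a GC box. Agrn has 9 GC boxes counted without overlap, and its called WT peak lies further upstream than the stretch shown. Trit1, among the 5 lowest genes, has no match.
Tnf, chr17:35202008-35202157, minus strand: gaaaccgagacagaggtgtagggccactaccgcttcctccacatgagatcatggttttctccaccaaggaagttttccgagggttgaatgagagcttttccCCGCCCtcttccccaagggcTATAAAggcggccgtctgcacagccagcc
Jun, chr4:95052223-95052372, minus strand: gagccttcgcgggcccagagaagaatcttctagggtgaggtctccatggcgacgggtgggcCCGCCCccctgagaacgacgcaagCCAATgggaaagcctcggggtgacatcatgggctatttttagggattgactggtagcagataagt
Agrn, chr4:156197489-156197638, minus strand: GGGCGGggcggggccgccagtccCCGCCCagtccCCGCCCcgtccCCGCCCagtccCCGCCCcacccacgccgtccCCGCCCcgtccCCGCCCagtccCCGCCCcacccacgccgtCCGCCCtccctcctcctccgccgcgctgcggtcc
Trit1, chr4:123016443-123016592, plus strand: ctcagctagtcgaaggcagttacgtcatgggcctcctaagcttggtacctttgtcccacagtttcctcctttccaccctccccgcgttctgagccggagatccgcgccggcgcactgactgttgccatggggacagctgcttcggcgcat

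Tags in peaks numbered 372367 and 509741 for NCoR f/f replicates 1 and 2, which was 2.37% and 2.73% of their 15702362 and 18689862 tags, and the 6 WT libraries held between 116733 and 202523. The resting promoter peaks took 40.4% and 41.5% of the tags in peaks of the NCoR f/f libraries. The median promoter peak was 321 bp wide and held 18 tags in replicate 1 and 26 in replicate 2, so that a single peak carries a wide counting error. Of the 18 macrophage markers checked, 15 had a resting peak of some kind. The 5 B cell and 4 stromal markers had no peak in the table, and 1 of 7 T cell, 1 of 4 erythroid, 1 of 4 epithelial and 1 of 3 neuron markers had a resting peak, none of them at the promoter.

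The level of a peak is given as tags per kb of peak per 1000000 tags in peaks of the library. The median level of the resting promoter peaks was 149 in replicate 1 and 153 in replicate 2 (mean of both libraries 151). The other resting peaks had a median of 126 and 122, so that the promoter peaks were higher in both libraries, 1.21-fold over the mean. The promoter peaks had quartiles of 118 and 202, and their 95th percentile (322) was 3.61 times the 5th (89.1). The other resting peaks were spread less widely, with quartiles of 103 and 156 and a ratio of 3.06. The 2 libraries ranked the promoter peaks alike, with a Spearman correlation of 0.724 and a Pearson correlation of log2 levels of 0.761 over 7098 peaks, against 0.570 and 0.743 over the other resting peaks. These are descriptions across peaks, and the authors chose resting peaks by the reproducibility of these same libraries, so the agreement is not independent of the choice. The levels of 83.6% of the promoter peaks lay within 1.5-fold of each other, and the median coefficient of variation was 13.8%.

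**Figure D1:**
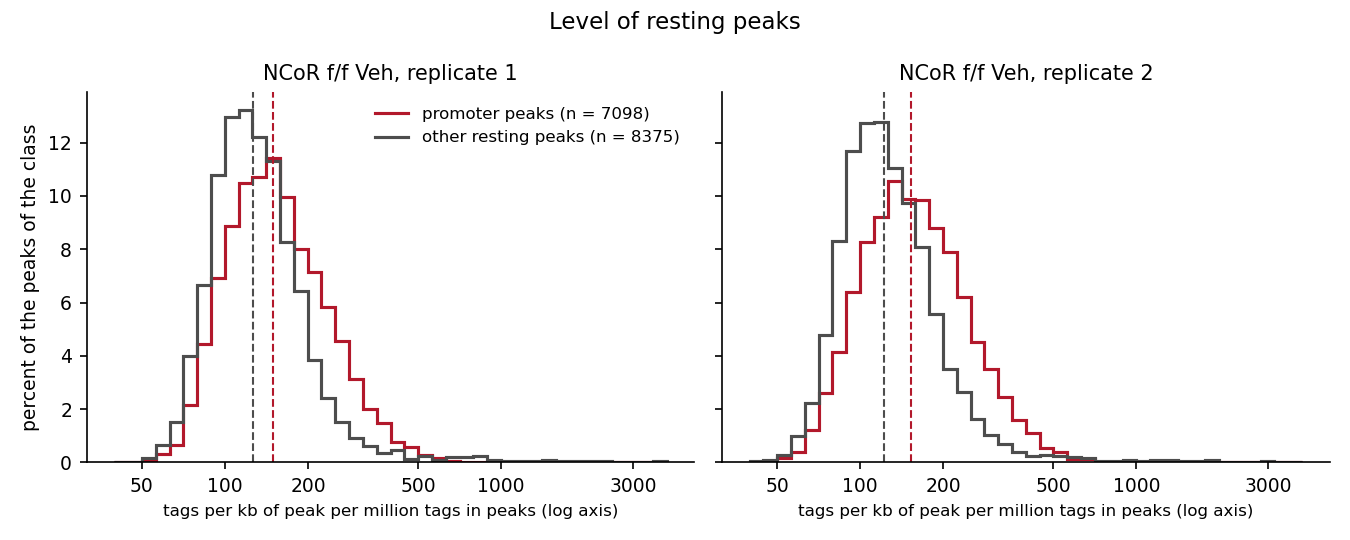
Share of peaks (percent of the class, y axis) by level (tags per kb of peak per 1000000 tags in peaks, log x axis) in each NCoR f/f Veh library, for the 7098 promoter peaks and the 8375 other resting peaks. Dashed lines mark the medians, 149 and 153 for promoter peaks against 126 and 122 for the others.

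Split between libraries was tested peak by peak with a two-sided exact binomial test against the ratio of total tags in peaks. After Benjamini-Hochberg adjustment over the table, 0 of the 7098 promoter peaks were called, against a background of 0% of all 24867 peaks, and 249 of them (3.51%) had an unadjusted p under 0.05. The most unequal was the promoter peak of Mertk, a receptor for apoptotic cells, with 27 tags in replicate 1 and 9 in replicate 2 (exact binomial test, adjusted p = 0.25). Over all peaks, the squared difference between the libraries, scaled by its counting error, averaged 1.07, which is above counting noise (one-sided chi-square test, p = 1.78e-16), and over the promoter peaks it averaged 0.927. Resting peaks were chosen by the reproducibility of these same libraries. The even split at promoter peaks is therefore not independent of the choice and gives no measure of replicate quality.

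The promoter peaks were assigned to 6651 genes, of which 419 had more than 1 (Hnrnpf had 5 and Ing1 had 4). Of 21000 protein-coding RefSeq genes, 7089 (33.8%, 95% Wilson interval 33.1 to 34.4%) had a resting promoter peak at one of their start sites. Wilson intervals here and below cover counting error only. For the ranking, a gene was given the level of its promoter peak nearest the TSS, and 6649 genes on regular chromosomes were ranked, with a median of 151.

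Hjurp, the chaperone that loads the centromeric histone CENP-A, had the highest level of the 6649, 955 ± 15.1 (SD, n = 2), from 127 and 170 tags at 43 bp upstream of the TSS. Sfi1, a centrosomal protein, came next with 827 ± 86.5 from 122 and 144 tags. The 95% counting interval of the pooled tags of Hjurp overlapped that of 1 other gene, Sfi1, so that Hjurp stood above the rest. The interval of Sfi1 overlapped those of 4 genes, among them Pja2, Cldnd1 and Kbtbd8os, so that Sfi1 was not set apart from these. Pja2, a ubiquitin ligase, followed at 656 with 90 and 137 tags, and its interval overlapped those of 48 genes. Cldnd1 had 629 (51 and 75 tags), and Kbtbd8os, a noncoding RNA on the strand opposite Kbtbd8, had 613 (47 and 80 tags). Leprot, which overlaps the leptin receptor gene, had 606 (110 and 134 tags). The rest of the first 10 were metabolic, transcription and receptor genes without a common function, with both libraries of each far above the median of 151. Polr3k, a subunit of RNA polymerase III, had 604 (56 and 86 tags). Pcca, the alpha subunit of propionyl-CoA carboxylase, also had 604 (65 and 95 tags). Kyat3, a kynurenine aminotransferase, had 591 (49 and 86 tags), and Opn3, an opsin, had 562 (45 and 80 tags). Their order among themselves was not resolved, since the interval of Opn3 at rank 10 overlapped those of 123 genes, that of Mier1 at rank 100 those of 783, and that of Slc27a4 at rank 3325 those of 5805. None of the 10 peaks had a near-identical copy elsewhere on the chromosomes (at least 95% identity over at least 80% of the peak). Copies that the assembly lacks or merges would not be found by this search.

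**Figure D2:**
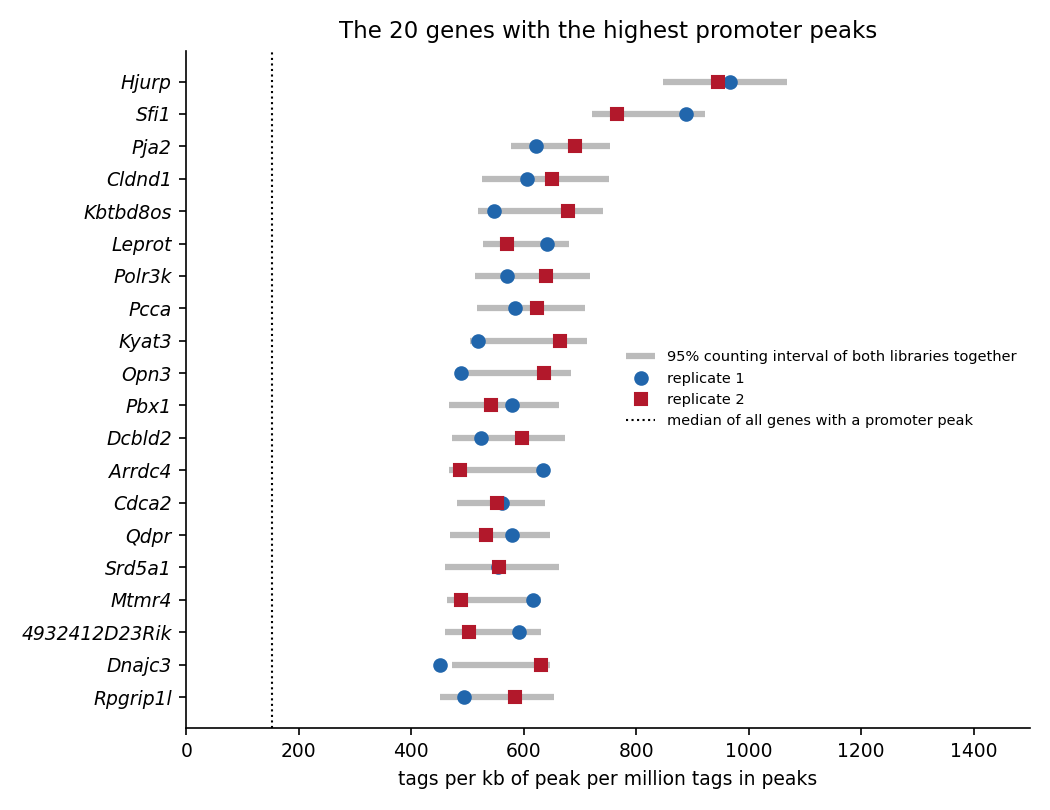
Level of the promoter peak (tags per kb of peak per 1000000 tags in peaks, x axis) of the 20 highest genes in replicate 1 and replicate 2 of NCoR f/f Veh, with the 95% counting interval of both libraries pooled as a grey bar. Hjurp at 955 and Sfi1 at 827 are the highest, and the bar of Sfi1 overlaps those of Hjurp, Pja2, Cldnd1 and Kbtbd8os. The bars of the other genes overlap each other, and all 20 lie far to the right of the median of 151.

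All 10 highest genes also had a peak in the WT table. At Hjurp the WT peak held 74 and 67 tags at Veh, 97 and 58 after KLA, and 90 and 93 after RGFP966 + KLA, and by its Veh level it ranked 46 of 9698 WT peaks. Pja2 ranked 59 with 67 and 74 tags at Veh, Kbtbd8os 78 with 55 and 37, and Kyat3 1044 with 13 and 23. Of the 10, Kyat3 was the lowest in the WT cells and Hjurp the highest.

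Of the 100 highest genes, 46 were also among the highest 100 by tags not divided by width. At the low end, Madd, an adaptor of MAP kinase signaling, had a level of 51.4 from 9 and 13 tags, Kcnh3, a potassium channel, 56.3 from 5 and 13, and Trit1, which modifies tRNA, 58.7 from 10 and 12. Mark4, a microtubule-affinity regulating kinase, had 60.9 (10 and 13 tags) and Vav3, a guanine nucleotide exchange factor, 61.9 (7 and 11 tags). Levels this low rest on 5 to 13 tags a library, and the counting intervals of these genes overlap.

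Peaks off the regular chromosomes were not ranked. Pisd-ps3, a pseudogene on an unplaced scaffold, had the highest level of all promoter peaks, 2942, with 249 and 307 tags. Vamp7, on an unlocalized scaffold of the X chromosome, had 159 with 14 and 24 tags.

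By the Gene Type of the table, 6779 of the promoter peaks (95.5%) belonged to protein-coding genes, 306 (4.31%, 3.86 to 4.81%) to noncoding RNAs and 13 (0.183%) to pseudogenes. Among the other resting peaks the nearest gene was noncoding for 13.7% and a pseudogene for 2.04%, and those intervals do not overlap the ones of the promoter peaks. Gene Type made little difference to the level. The median was 149 and 153 in the 2 libraries for protein-coding genes (151 over the mean) and 147 and 151 for noncoding RNAs (146). The 12 pseudogene peaks on regular chromosomes had 117 and 143, with a median of 141 that ranged from 97.9 to 285 over these few peaks.

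Among the noncoding RNAs, the 24 antisense or opposite-strand transcripts had a median of 161, the 31 microRNA genes 151, the 6 hosts of small nucleolar RNAs 130, and the other 245 had 146. Kbtbd8os led with 613, followed by 4932412D23Rik with 547 (75 and 87 tags), 1700102H20Rik with 509 (41 and 69 tags) and Gm7008 with 485 (45 and 67 tags). The highest pseudogenes on regular chromosomes were 4632415L05Rik, a pseudogene of Rrs1, with 285 (28 and 34 tags), and H2-K2 with 230 (41 and 40 tags). The noncoding genes differed more in neighbourhood and composition. CpG-rich sequence, as defined below, was found at 67.3% of the noncoding promoter peaks (61.9 to 72.3%) and at 76.5% of the protein-coding ones (75.5 to 77.5%). A divergent pair, in which a gene on the opposite strand starts within 1000 bp, was found at 43.5% of the noncoding promoter peaks (38.0 to 49.1%) and at 14.0% of the protein-coding ones (13.2 to 14.9%). Over both types, 1089 promoter peaks at divergent pairs had a median level of 162 against 149 at the 6007 others.

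Distances are those of the table, from the center of a peak to the nearest TSS. The centers of the promoter peaks lay upstream of the TSS in 77.0% and within 200 bp of it in 86.1% (85.2 to 86.9%). The median position was 54 bp upstream, with quartiles at 116 and 6 bp upstream. The level followed this position. It was highest for the 1265 peaks centered between 200 and 100 bp upstream, with medians of 175 and 182 in the 2 libraries. For the 582 peaks at 500 to 201 bp upstream it was 156 and 162. For the 1567 peaks at 100 to 51 bp upstream it was 154 and 158. For the 1789 peaks from 50 bp upstream to the TSS it was 145 and 151. It was lower on both sides, with 129 and 131 for the 287 peaks at 1000 to 501 bp upstream and 133 and 128 for the 202 peaks over 100 bp downstream, all of which were annotated to the promoter of another transcript than the one with the nearest TSS.

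The sequence of the promoter peaks was of the CpG island kind. In the 200 bp at the center of each of 7096 peaks, the median GC content was 66.5%, against 52.5% in the other resting peaks and 54.0% in 32851 RefSeq promoters. The observed over expected CpG ratio was 0.846, against 0.262 and 0.413. By a rule of over 55% GC and a ratio over 0.65, 76.1% of the promoter peaks were CpG-rich (75.1 to 77.1%), against 14.6% and 30.7%. Among themselves, the promoter peaks differed little in level with composition, and not in one direction. In 5 equal groups by GC, from low to high, the median level was 147, 155, 160, 152 and 143, and the middle group was highest in replicate 2 (160) and in replicate 1 (155). In 5 groups by CpG ratio it lay between 146 and 160. The Spearman correlation of level with GC was -0.01 and with the CpG ratio -0.0032 over 7096 peaks, and CpG-rich peaks had a median level of 152 against 147 for the 1695 that were not.

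The 15 motifs were searched on both strands of the 200 bp as exact strings. The GC box GGGCGG, bound by Sp1, was found in 69.6% of the promoter peaks, against 18.9% of the other resting peaks and 32.2% of RefSeq promoters. The box CCAAT, bound by NF-Y, was found in 37.7%, against 20.5% and 28.6% respectively. The ETS string CCGGAAG, of the kind bound by GABPA, was found in 17.3%, against 3.66% and 7.54%. The E box CACGTG was present in 8.34% (4.98% and 5.45%), and the string GCATGCGC, bound by NRF1, in 4.75% (0.733% and 2.29%). The YY1 string ATGGCGGC was present in 4.07% (0.562% and 1.85%), the core ACTACAA of the ZNF143 site in 3.92% (1.34% and 2.26%), and the CREB and ATF string TGACGTCA in 2.90% (0.696% and 1.60%). The palindrome CTCGCGAG, bound by ZBTB33 among others, stood in 1.85% (0.0977% and 0.764%). All of these were more frequent in the promoter peaks than in either set, and every one but the CCAAT and ZNF143 strings holds a CpG.

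The strings of AP-1 and PU.1, a signal-dependent and a lineage-determining factor, were rarer in the promoter peaks than in the other resting peaks. The AP-1 string TGANTCA was found in 3.09% of the promoter peaks and in 22.5% of the other resting peaks (5.35% of RefSeq promoters). The PU.1 string GAGGAAGT was found in 2.58% and 12.6% respectively (2.40%). The TATA box TATAAA was found in 2.00% of the promoter peaks, 4.71% of the other resting peaks and 8.91% of RefSeq promoters. The NF-kB string GGGNNTTCC was found in similar shares, in 5.10%, 4.44% and 4.13%. The SREBP string TCACNCCAC was in 0.676%, 1.05% and 0.834%. The palindrome TTACGTAA, bound by C/EBP and PAR bZIP factors, was in 0.141%, 0.110% and 0.0944%. It is a single string and does not stand for C/EBP sites in general. A match is a string and no evidence of binding, and strings that hold CpG follow the composition of the peaks.

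Of the 15 motifs, CCAAT went with the largest difference in level. The 2675 promoter peaks with a match had a median level of 167 in replicate 1 and 175 in replicate 2, and the 4421 without had 140 and 143, which is a ratio of 1.22 over the mean and of 1.19 and 1.22 in the libraries. The level was higher the more matches a peak had, from 141 with none to 160 with 1 (1567 peaks), 183 with 2 (753 peaks) and 204 with 3 or more (355 peaks). Read the other way, with the promoter peaks in 5 equal groups by level, a match was found in 24.4% of the lowest group, then in 30.4%, 35.8% and 42.7%, and in 55.3% of the highest (52.7 to 57.8%). Polr3k, with 2 matches in the printed stretch, and Kyat3, with 3, are examples from the top of the ranking, while Hjurp and Cldnd1 there had none. In the other resting peaks, the ratio was 1.04. The only other motifs with a level difference of over 10% were ACTACAA, with 172 against 150, and TATAAA, with 133 against 151.

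The CCAAT difference was set beside the properties that could move with it. Peaks with and without a match had median widths of 321 and 320 bp and GC contents of 63.5% and 68.0%. In 5 equal groups by GC the ratio lay between 1.19 and 1.27, in 3 groups by width between 1.15 and 1.26, and in 5 groups by distance to the TSS between 1.15 and 1.23. It was 1.25 at divergent pairs and 1.20 elsewhere, and 1.22 for protein-coding and 1.25 for noncoding genes. The matches themselves were concentrated upstream, with a median position of 74 bp before the start (quartiles 134 and 34 bp) and 43.5% of 4225 matches between 120 and 40 bp before it. These motif tallies were chosen with earlier results of these data known and carry no test.

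**Figure D3:**
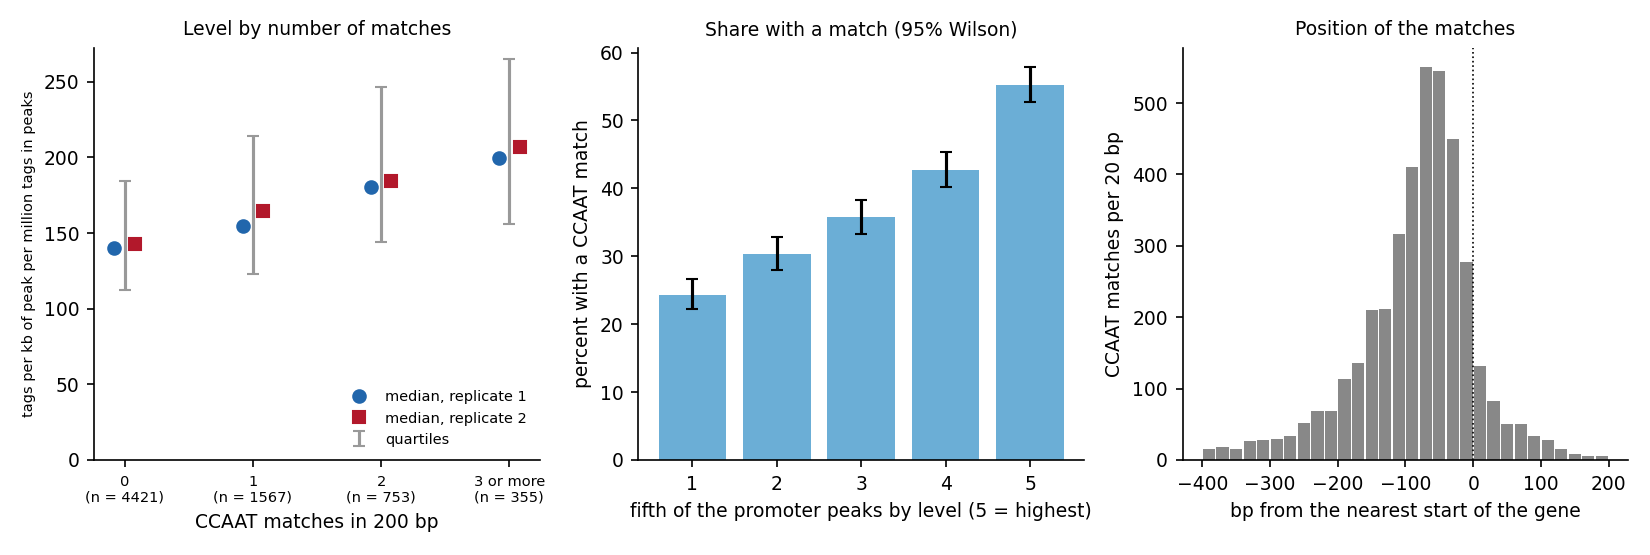
Left, level (tags per kb of peak per 1000000 tags in peaks) of the promoter peaks by number of CCAAT matches, as the median of each library with the quartiles of the mean level in grey. Middle, percent of peaks with a match in 5 equal groups by level, with 95% Wilson intervals, rising from 24.4% to 55.3%. Right, number of matches per 20 bp by distance from the nearest start of the gene (bp), with most matches shortly before the start.

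In the WT table, 3961 peaks overlapped a resting promoter peak. Those of them with CCAAT had a higher median level than those without in 6 of 6 libraries, with ratios of 1.16 and 1.13 at Veh, 1.17 and 1.14 after KLA, and 1.09 for both libraries of RGFP966 + KLA. The WT libraries took no part in the choice of the promoter peaks, but most of the same stretches of DNA are counted in both tables.

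Genes of function lists were compared by the median level of their members, beside the median of 151 of all 6649 ranked genes. A gene counts as having a resting promoter peak where the table assigns one to it by name. By the mean of both libraries, the highest list with more than 1 member was the LXR and SREBP lipid genes. Of 23 genes, 16 had a resting promoter peak, with a median of 188 (174 in replicate 1, 190 in replicate 2), and 9 of the 16 were above the median of all genes. Genes of cholesterol synthesis and its control were at its upper end. Hmgcs1, which makes HMG-CoA, led with 531 from 66 and 92 tags. Sqle, squalene epoxidase, had 303 (34 and 56 tags), and Insig1, which retains SREBP in the endoplasmic reticulum, had 273 (28 and 53 tags). The lowest was Srebf1, with 80.9 from 14 and 15 tags. Abca1, the cholesterol exporter and LXR target that the study names, had 148 from 17 and 26 tags, close to the median of all genes. A CCAAT match was present in 12 of the 16, and 14 of the 16 were CpG-rich.

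Glycolysis followed with 16 of 20 genes and a median of 164. Hk2, hexokinase 2, led with 349 (44 and 61 tags), and Ldha, lactate dehydrogenase A, was lowest with 80.4 (10 and 24 tags). The tRNA synthetases had a median of 163 over 22 genes, from Vars2 at 78.2 to Tars at 352. Lysosome and phagocytosis genes had 162 over 16 of 32 genes. Their medians in single libraries were 184 in replicate 1, above the lipid genes (174), and 189 in replicate 2, close to the lipid genes (190). Npc1, the lysosomal cholesterol transporter, had 314 (38 and 42 tags) and Mcoln1, the lysosomal calcium channel, 83.7 (11 and 16 tags). These 3 lists and the lipid genes had medians above that of all genes, but each also held a gene at 83.7 or less.

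Other groups, housekeeping ones among them, had medians near or below that of all genes. Zinc finger proteins had a median of 155 over 187 genes, from Zfp688 at 80.1 to Zfp367 at 391. The mitochondrial ribosome had 153 over 38, from Mrpl12 at 84.4 to Mrpl39 at 323, and the respiratory chain 146 over 48, from Ndufaf6 at 90.7 to Atp5e at 336. Ribosomal proteins, whose mRNAs are among the most abundant of a cell, had 142 over 43, with Rps21 at 358 (51 and 82 tags) and Rpl11 at 76.6 (9 and 14 tags). The proteasome had 141 over 26, from Psme1 at 89.1 to Psma6 at 262, and the spliceosome 129 over 22, from Sf3b4 at 78.8 to Snrpa at 188. MicroRNA genes had 154 over 28, from Mir212 at 81.2 to Mir8114 at 276, and small nucleolar RNA hosts 130 over 6, from Snhg12 at 92.0 to Snhg6 at 232. Replication-dependent histone genes were low, at 118 over 22, from Hist1h2be at 68.3 to Hist1h2bh at 160. They were an exception to the CCAAT pattern, since 20 of the 22 had a match, and only 5 were CpG-rich.

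Macrophage genes were not among the highest. Of 18 macrophage markers, 8 had a resting promoter peak, with a median of 130 (146 and 103), and 2 of the 8 were above the median of all genes. Trem2, a lipid receptor, led with 212 (18 and 28 tags), followed by Tyrobp, its signaling adaptor, with 170 (20 and 37 tags). Cx3cr1, the fractalkine receptor, was lowest with 92.3 (9 and 13 tags). None of the 8 was CpG-rich. Another 7 of the 18 markers, among them Csf1r, the receptor of M-CSF, had a resting peak only outside the promoter annotation.

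Macrophage transcription factors were more often present, with 18 of 22, but had a median of 135. Bhlhe40 led with 277 (25 and 31 tags), and Spi1, which encodes PU.1, was lowest with 90.4 (16 and 24 tags). Of the 18, 16 were CpG-rich.

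For the corepressor itself, Ncor1 had 119 from 17 and 12 tags and Hdac3 114 from 13 and 16 tags. The NCoR and coactivator complexes had 10 of 15 genes and a median of 119, from Ep300, the acetyltransferase p300, at 85.6 (21 and 16 tags) to Ncoa2 at 197 (21 and 33 tags).

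Of the TLR4 pathway, 18 of 32 genes had a resting promoter peak, with a median of 142. Map2k3, a kinase upstream of p38, led with 218 (30 and 36 tags), and Cd14, the lipopolysaccharide coreceptor, was lowest with 101 (16 and 15 tags). Traf6, the ubiquitin ligase of the pathway, had 144 (11 and 22 tags), Tbk1 156 (33 and 51 tags) and Mapk3, which encodes ERK1, 154 (19 and 26 tags). All 3 were close to the median of all genes. Of its transcription factors, NF-kB factors and inhibitors had 5 of 12 genes and a median of 129, from Rel at 120 (27 and 46 tags) to Nfkbib at 215 (39 and 51 tags), with Rela, which encodes p65, at 124 (12 and 15 tags). AP-1 factors had 9 of 15 and a median of 159, from Fos at 85.4 (18 and 23 tags) to Fosl2 at 228 (25 and 37 tags). IRF and STAT factors had 8 of 16 and a median of 140, from Irf5 at 118 to Stat2 at 183.

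The immediate early genes had 12 of 16 and a median of 135, from Fos to Atf3 at 201 (34 and 74 tags), and feedback inhibitors 12 of 18 and 152, from Dusp16 at 90.7 to Zfp36l2 at 211 (32 and 38 tags). Among the inflammatory target genes of TLR4 signaling, few promoters of cytokine, enzyme and chemokine genes had a resting peak. At a RefSeq start it was found for 5% of the cytokines and enzymes and 5.56% of the chemokines. For interferon-stimulated genes the share was 43.3%, beside 33.8% of all protein-coding RefSeq genes. Of 20 inflammatory cytokines and enzymes only Tnf had a resting promoter peak, at 95.9 from 13 and 18 tags, and of 18 chemokines only Ccl2, at 231 from 43 and 42 tags. Another 8 of the 20 and 2 of the 18 had a resting peak only outside the promoter annotation. In each of these lists, 4 genes had a promoter peak outside the resting set. Interferon-stimulated genes had 12 of 30 and a median of 106, from Oas2 at 72.3 to Mx2 at 188, and 3 of the 12 were CpG-rich. Of 10 osteoclast genes, Tnfrsf11a, which encodes RANK, had 128 and Nfatc1 had 97.1. Ptgs2, which encodes cyclooxygenase 2, had a promoter peak outside the resting set, with 2 and 8 tags. Cp, Il12a, Scd2, Acp5, Ocstamp and Ppargc1b had no promoter peak in the table.

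Markers of other cell types were near absent. Of 6 neutrophil markers only Camp, an antimicrobial peptide gene, had a resting promoter peak (121, 14 and 17 tags), and of 3 dendritic cell markers only Zbtb46 (155, 25 and 27 tags). T cell, B cell, erythroid, stromal, epithelial and neuron markers had 0.

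**Figure D4:**
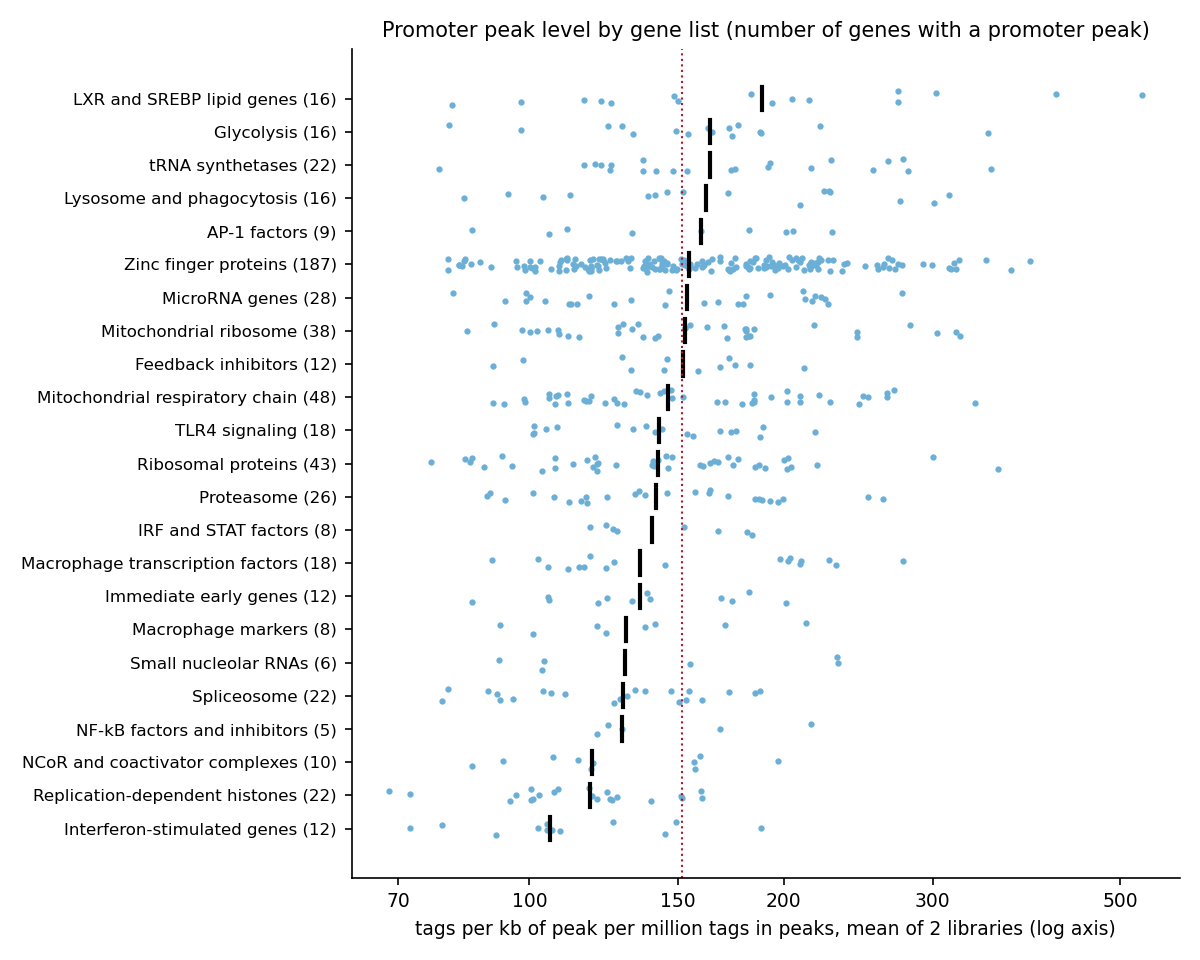
Level of the promoter peak (tags per kb of peak per 1000000 tags in peaks, mean of the 2 NCoR f/f Veh libraries, log x axis) of each gene of a function list, for lists with at least 5 such genes (y axis, number of genes in parentheses). Black bars mark list medians, from 188 for LXR and SREBP lipid genes to 106 for interferon-stimulated genes, and the dotted line marks the median of 151 of all ranked genes.

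Membership of the resting set was not a sharp limit of level. Of the 2047 promoter peaks outside it, 133 (6.50%) were above the median level of the resting promoter peaks. Tlr4 is an example, with a promoter peak of 27 and 37 tags and a level of 225 that was not in the set. Of the resting promoter peaks, 84.3% were also in the authors' set of NCoR f/f cells after KLA, 55.1% in the set of NCoR-deficient cells at Veh and 72.9% in that of NCoR-deficient cells after KLA, against 66.1%, 35.8% and 56.4% of the other resting peaks. All 4 sets held 47.5% of the promoter peaks and 26.5% of the others. The tags of those other libraries were not analysed here.

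In WT BMDMs, 3963 of the promoter peaks (55.8%, 54.7 to 57.0%) overlapped a peak of the WT table by at least 1 bp and 2602 (36.7%, 35.5 to 37.8%) a peak of the WT Veh set, against 43.4% and 22.4% of the other resting peaks. The share with a WT Veh peak followed the level, from 5.28% in the lowest of 5 equal groups through 11.6%, 27.7% and 50.4% to 88.2% in the highest. The share was alike for protein-coding (36.7%) and noncoding genes (36.3%). Over the 3961 promoter peaks on regular chromosomes with a WT peak, the levels of the 2 tables had a Spearman correlation of 0.642. Each table has its own peaks and depth, so that levels are not compared in size between them, and genotype and library preparation cannot be told apart.

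How the promoter peaks responded to KLA was taken from the WT peaks that overlap them. Few were called. With edgeR's quasi-likelihood test (adjusted p under 0.05 and fold change over 2), 15 of the 3961 were gained with KLA (0.379%, 0.230 to 0.624%) against 3.3% of all 9698 WT peaks, and 38 were lost (0.959%, 0.700 to 1.31%) against 1.73%. Of all gained WT peaks 4.69% were at resting promoters, and of all lost ones 22.6%. The promoter peaks were chosen as open at rest, while the WT table also holds peaks from outside its Veh set. The low share gained may in part follow from that choice and is not a measure of promoters as such. The share called among WT peaks at the other resting peaks is not given here. The median log2 change over the 3961 was -0.06, beside 0.02 over all WT peaks. At an unadjusted p under 0.05, 150 were higher and 275 lower. DESeq2 called 0 in either direction, with 20 higher and 51 lower at an unadjusted p under 0.05. Leaving out WT Veh replicate 1, WT Veh replicate 2 or WT KLA replicate 1 gave 4, 2 and 4 gained peaks, of which 2, 2 and 3 were among the 15, and 10, 25 and 19 lost peaks, of which 8, 19 and 9 were among the 38. Without WT KLA replicate 2, 10 of the 15 and 24 of the 38 were called again.

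Agrn, a heparan sulfate proteoglycan, was the gained peak with enough tags to be named by the rule for named genes. It held 9 and 7 tags at Veh, 39 and 26 after KLA, and 32 and 31 after RGFP966 + KLA. The groups did not overlap in level, the log2 change was 1.73 (edgeR adjusted p = 0.00225), and the peak stayed called without each of the 4 libraries in turn. The other 14 were at Isg20, Ppia, Trex1, Zfp938, Egln3, Slamf8, Dnajc12, Zfp84, Zfp825, Gpc2, Vps41, Camp, Atg9a and AU041133, with a mean of fewer than 20 tags. Isg20 and Trex1 are interferon-induced nucleases. Isg20 held 2 and 1 tags at Veh and 17 and 7 after KLA (edgeR adjusted p = 0.00781), and Trex1 held 5 and 2 and then 27 and 10 (adjusted p = 0.00876). Of the interferon-stimulated list, 4 genes had a WT peak at the promoter, and Isg20 was the 1 called.

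Jun, a subunit of AP-1, was lost with KLA. Its promoter peak held 47 and 26 tags at Veh, 12 and 11 after KLA, and 31 and 22 after RGFP966 + KLA, so that every Veh library was above every KLA library in level. The log2 change was -1.93 (edgeR adjusted p = 0.000213), and it stayed called without each library. Ccl2, the chemokine that attracts monocytes, held 31 and 29 tags at Veh, 20 and 7 after KLA, and 16 and 21 after RGFP966 + KLA. Its change was -1.43 (edgeR adjusted p = 0.00496), and without WT KLA replicate 2 it was -1.16 with an adjusted p of 0.0527. Every Veh library was again above every KLA library in level.

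Klf10, a zinc finger repressor, held 43 and 29 tags at Veh and 19 and 16 after KLA (-1.31, edgeR adjusted p = 0.00496). Lmnb1, which encodes lamin B1, held 30 and 27 tags at Veh and 18 and 14 after KLA (-1.11, edgeR adjusted p = 0.0263). Both were less firm, since Klf10 stayed called in 2 of the 4 fits that leave out a library, with adjusted p of up to 0.153, and Lmnb1 in 1, with up to 0.265.

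By list, the lost peaks included 2 of Zfp36l2, which promotes mRNA decay (feedback inhibitors), 1 of Hnrnpa2b1 (spliceosome), and 1 of Bhlhe40 (macrophage transcription factors), which is named here after its values were seen. A different WT peak of Bhlhe40 overlaps the promoter peak by which the gene was ranked, with 24 and 10 tags at Veh and 10 and 11 after KLA. That one was not called with KLA (log2 change -0.97, edgeR adjusted p = 0.158) or with RGFP966 over KLA (0.22, adjusted p = 0.856). The called WT peak of Bhlhe40, 669 bp upstream of the TSS, held 18 and 18 tags at Veh, 4 and 2 after KLA, and 18 and 21 after RGFP966 + KLA. It was lost with KLA (log2 change -2.82, edgeR adjusted p = 0.000323), also without each library, and gained with RGFP966 over KLA (2.27, adjusted p = 0.0246), a call that was lost with any 1 of the 4 libraries left out. The lipid genes were not called in either direction. Of 16 with a resting promoter peak, 9 had a WT peak, 0 were gained and 0 lost, and the median log2 change was 0.00. Beside the 0.379% and 0.959% over all 3961, so few peaks leave a count of 0 uninformative about the list. Hmgcs1 held 47 and 32 tags at Veh, 59 and 37 after KLA, and 55 and 55 after RGFP966 + KLA, with a log2 change with KLA of 0.00 (edgeR adjusted p = 0.997).

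**Figure D5:**
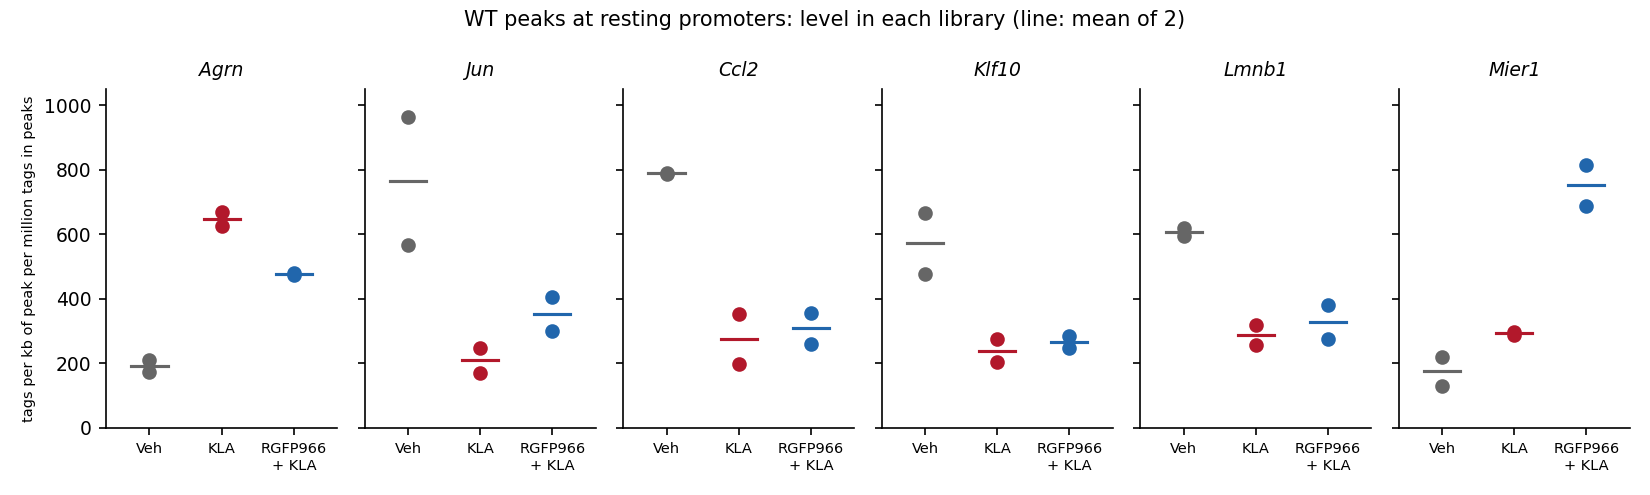
Level (tags per kb of peak per 1000000 tags in peaks, y axis from 0) of the WT peaks at 6 resting promoters in each library at Veh, KLA and RGFP966 + KLA, with the mean of 2 libraries as a line. Agrn is higher and Jun, Ccl2, Klf10 and Lmnb1 are lower after KLA than at Veh in both libraries, and Mier1 is higher after RGFP966 + KLA than after KLA.

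With RGFP966 over KLA, 4 of the 3961 promoter peaks were gained (0.101%) against 0.237% of all WT peaks, and 2 were lost (0.0505%) against 0.103%. Mier1, a transcriptional regulator that binds histone deacetylases, held 9 and 5 tags at Veh, 17 and 11 after KLA, and 44 and 50 after RGFP966 + KLA. This WT peak of Mier1, 365 bp downstream of the TSS, does not overlap the promoter peak by which the gene was ranked. Its log2 change over KLA was 1.35 (edgeR adjusted p = 0.0191), with every RGFP966 + KLA library above every KLA library. Without any 1 of the 4 libraries it was not called, with an adjusted p between 0.108 and 0.239. The others gained were Fah, Bhlhe40 and Mfge8, a bridge to apoptotic cells, and Med14 and Mtf1 were lost. The median log2 change over the promoter peaks was -0.02. At an unadjusted p under 0.05, 181 were higher and 218 lower by edgeR, and DESeq2 called 0 in either direction, with 14 and 17 at an unadjusted p under 0.05.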

How the data were processed

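The deposited ATAC-seq counts are raw tags per peak and library. Per the labels and methods, the authors aligned single-end reads of 70000 cells (gel-selected fragments of 175 to 225 bp) by Bowtie2 (mm10), found peaks by HOMER, kept those reproducible between the 2 most correlated samples of a condition, merged them, and counted at most 3 tags a base position. Versions are not given in the sources used here, and no value was normalized. The resting set and promoter annotation were read from the table. From the counts, levels were computed per kb and per 1000000 tags in peaks.

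WT conditions were compared with edgeR 4.0.16 (R 4.3.3), glmQLFit and glmQLFTest, over peaks with at least 4 tags in a sample, all 6 libraries in 1 model, library sizes being total tags in peaks, and Benjamini-Hochberg adjustment over 9698 peaks. DESeq2 1.42.0, other filters, scalings and left-out libraries were alternatives. Genes named are the 10 highest, the ends of each list, those the study names, the 2 highest of other gene types, members off regular chromosomes, and called WT peaks with the largest fold and a mean of at least 20 tags. Sequence was read with pysam 0.24.0, copies were searched with blastn 2.17.0, and other steps used Python 3.11.15, matplotlib 3.10.9, scipy 1.17.1, pandas 2.3.3 and numpy 2.4.6. Of the 7098 promoter peaks, 5802 had an entry in the RefSeq promoter table.

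Members, lists and motifs were chosen with earlier results of these data known. Some genes that the rule selects are not reported here, and ChIP-seq and RNA-seq data were not analysed here.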

Additional observations from a re-analysis of the deposited data

How the results depend on the processing

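The WT libraries held 12 to 20 tags at the median promoter peak tested, which limits the precision of each change. An overlap of 50%, TMM factors, and tag filters of none or 16 kept every count of called promoter peaks within 1.5 times. Library sizes from all tags gave 5 peaks gained and 22 lost with KLA and 0 lost with RGFP966, and DESeq2 gave 0 in each of the 4 counts. With 1 library left out, where the lone library is assumed to vary like the other groups, 2 to 14 were gained and 10 to 31 lost with KLA, and 0 to 1 gained and 0 to 0 lost with RGFP966. With only the 4 libraries compared, 7 were gained with RGFP966. With the replicate number as a block, 20 were gained and 51 lost with KLA and 7 gained and 2 lost with RGFP966. Whether the numbers pair the libraries is not known. Same-numbered libraries deviated together with correlations of 0.0176, 0.0178 and 0.0232. At so few tags counting noise can bring such correlations near 0, so that they cannot tell paired from unpaired libraries. The cause of these differences was not tested. Of 99 refits of the WT peaks chosen for naming, 71 kept the call, 28 kept the direction without it and 0 reversed.

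The median level of 151 was 3.85 per 1000000 of all tags, 50.4 without division by width, 145 for promoters defined as within 2 kb of a TSS, and 184 for peaks of at least 16 tags in both libraries, which are units or selections of their own. Its ratio to the other resting peaks was 1.33, 1.15 and 1.13 under the last 3 and 1.18 to 1.26 in single libraries. Of the 100 highest genes, 46 stayed among the highest 100 without division by width, 92 with all promoter peaks of a gene pooled, and 79 to 80 in a single library. The CCAAT ratio of 1.22, with alternatives chosen after seeing the data, was 1.19 without division by width, 1.19 over the whole peak, 1.18 for at least 16 tags, and 1.19 to 1.22 in single libraries.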
